A study of Mus musculus with 22 samples.

Results

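Collagens are the structural proteins of the extracellular matrix, and their genes were followed here in lung metastases of mice. The members are all genes whose symbol reads Col, a chain family number, the letter a and a chain number, with 1 probe set per symbol. They came to 42 of the 19505 genes named on the array, and each had a single probe set. By class they hold 11 fibrillar collagens, 8 basement membrane collagens and 23 of other types. Col7a1, Col12a1 and Col21a1 have no named probe set in the table and were not analysed here.

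The mice had received NMuMG-ErbB2 cells through the tail vein. NMuMG is an epithelial line from the mouse mammary gland, and ErbB2 is a receptor tyrosine kinase. The cells were either NMuMG-ErbB2/PGC-1alpha, which overexpress the transcriptional coactivator PGC-1alpha, or the control line NMuMG-ErbB2/VC. After injection the animals were given phenformin, a biguanide that inhibits mitochondrial respiration, for 1 week, or PBS. The 4 groups were control metastases under PBS (5 arrays), control metastases under phenformin (5 arrays), PGC-1alpha metastases under PBS (6 arrays) and PGC-1alpha metastases under phenformin (6 arrays). All groups therefore carry ErbB2 cells in mouse lung, the tissue of each array was cut from lung sections with a laser, and 10 ng of RNA was labelled. Strain, age, the number of clones per line and the number of animals per group are not given in the sources used here. Arrays may share an animal, and the p-values rest on the spread among arrays alone.

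Collagen chains assemble in threes into a triple helix. Fibrillar collagens form the rope-like fibrils that give tissue its tensile strength and are made mostly by fibroblasts. Type IV collagen instead forms the sheet-like network of basement membranes, in the lung under the alveolar epithelium and around capillaries. The remaining types link fibrils together, form beaded filaments or short networks, or span the cell membrane. In a tumour the matrix can come from the cancer cells and from the stroma, and in such bulk samples fewer cells of a type and less RNA per cell cannot be told apart.

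Promoter sequences are shown for Col4a5 and Col4a6, a pair read in opposite directions of which both passed under phenformin, and for 2 further genes. These are Col11a2, the fibrillar gene with the largest called difference, and Col18a1, the 1 collagen gene that passed under PBS. The phenformin call of Col4a5 and the PBS call of Col18a1 were lost in 11 and 16 of 22 fits without 1 array. The sequences were taken from RefSeq (assembly GRCm38.p6) and run from 250 bases before to 50 bases after the annotated start, 5′ to 3′ on the gene's own strand. Capitals mark matches on either strand to GGGCGG (known as a GC box), to the letters CCAAT, to the TATAAA element, the site of estrogen-related receptors, which PGC-1alpha coactivates (AAGGTCA), and a core element bound by Smad factors of TGF-beta signalling (CAGACA). No matches overlap in the sequences shown.
Col4a5, chrX:141475169-141475468, plus strand: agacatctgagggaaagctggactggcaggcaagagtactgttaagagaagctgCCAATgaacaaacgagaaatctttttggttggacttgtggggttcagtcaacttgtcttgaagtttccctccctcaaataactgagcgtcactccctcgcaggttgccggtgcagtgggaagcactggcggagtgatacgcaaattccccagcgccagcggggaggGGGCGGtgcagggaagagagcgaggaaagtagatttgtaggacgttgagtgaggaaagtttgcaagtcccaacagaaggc
Col4a6, chrX:141474027-141474326, minus strand: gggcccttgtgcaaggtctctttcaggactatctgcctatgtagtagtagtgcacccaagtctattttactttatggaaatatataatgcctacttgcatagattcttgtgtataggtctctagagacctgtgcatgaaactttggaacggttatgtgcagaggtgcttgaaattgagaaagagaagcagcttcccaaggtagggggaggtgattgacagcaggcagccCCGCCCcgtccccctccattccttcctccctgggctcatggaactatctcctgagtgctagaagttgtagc
Col11a2, chr17:34038888-34039187, plus strand: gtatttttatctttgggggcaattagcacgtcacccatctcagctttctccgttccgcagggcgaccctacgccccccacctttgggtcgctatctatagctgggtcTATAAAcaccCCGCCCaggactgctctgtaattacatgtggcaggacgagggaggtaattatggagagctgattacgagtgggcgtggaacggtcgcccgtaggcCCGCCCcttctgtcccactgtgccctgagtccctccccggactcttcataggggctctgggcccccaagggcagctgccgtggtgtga
Col18a1, upstream start, chr10:77166481-77166780, minus strand: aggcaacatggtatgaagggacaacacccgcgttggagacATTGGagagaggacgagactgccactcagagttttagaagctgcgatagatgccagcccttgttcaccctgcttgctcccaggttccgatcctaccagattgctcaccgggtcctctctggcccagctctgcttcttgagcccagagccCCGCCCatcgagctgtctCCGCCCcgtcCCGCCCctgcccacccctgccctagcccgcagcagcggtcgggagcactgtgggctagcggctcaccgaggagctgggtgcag
Col18a1, downstream start, chr10:77113656-77113955, minus strand: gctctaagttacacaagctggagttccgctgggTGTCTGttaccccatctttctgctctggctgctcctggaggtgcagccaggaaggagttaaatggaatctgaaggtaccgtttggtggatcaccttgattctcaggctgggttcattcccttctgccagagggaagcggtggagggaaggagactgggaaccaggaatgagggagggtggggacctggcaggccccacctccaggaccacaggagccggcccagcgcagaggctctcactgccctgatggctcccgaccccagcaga
The start sites of Col4a5 and Col4a6 lie 1343 bases apart, and each promoter holds 1 GC box, with a CCAAT box in that of Col4a5 only. The upstream Col18a1 promoter holds 3 GC boxes and 1 CCAAT box, and the downstream one holds 1 CAGACA. The Col18a1 probe set does not tell transcripts of these starts apart here. Col11a2 has 1 TATAAA and 2 GC boxes. Of the 42 collagens 34 had a promoter in the table. GGGCGG was present in 21 of these 34 and in 35.6% of all 27025 promoters, CCAAT in 12 and in 37.78%, TATAAA in 5 and in 14.14%, AAGGTCA in 4 and in 4.66%, and CAGACA in 8 and in 21.1%. These matches describe letters in the window and were not tested as binding sites.

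All levels below are log2 array signals, and all differences are log2 differences of group means, PGC-1alpha minus control unless stated. A gene passed where its p-value, adjusted over all 15545 genes tested (Benjamini-Hochberg), was under 0.05. Col6a5 and Col6a6 were too dim to be tested, which leaves 40 collagens. Few collagen probe sets stood clear of the negative controls. Col1a1 and Col18a1 alone lay above the 95th percentile of the negative control probe sets (7.83 to 8.43 by array) on all 22 arrays, and 30 of the 42 lay above it on no array. That cut is above the array medians (6.55 to 6.64), and the share of all genes above it was not counted. The within-group SD had a median of 0.247 among the tested collagens and 0.252 among all genes. The injected transgene's gene, Ppargc1a, was higher in PGC-1alpha metastases by 1.36 under PBS (adjusted p = 0.0198) and by 0.59 under phenformin (adjusted p = 0.166), so the second of these did not pass.

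In mice given phenformin, 15 of the 40 tested collagen genes passed as higher in PGC-1alpha than in control metastases and 0 as lower. The 15 differed by 1.27- to 1.58-fold, against 10% of all genes passing in that direction, 11.1% in the other and 21.1% in total. The 15 comprise 3 of 11 fibrillar, 4 of 8 basement membrane and 8 of 21 other collagens. The median difference was 0.29 over the 40 and 0.00 over all genes, and 35 of the 40 (87.5%) lay above 0, as did 50.4% of all genes. By class the median was 0.20 for fibrillar, 0.30 for basement membrane and 0.36 for other collagens. The groups did not overlap for 8 collagens, all with PGC-1alpha higher, against 6.07% of all genes higher and 4.94% lower. These were Col4a4, Col4a6, Col9a3, Col11a1, Col11a2, Col13a1, Col16a1 and Col17a1, of which Col17a1 did not pass. The number passing was 7 without control phenformin array 3 or without array 4 of that group, 8 without control phenformin array 2 or PGC-1alpha phenformin array 2, and 8 with the score of normal lung markers as a covariate.

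Under PBS the same comparison gave 1 collagen, Col18a1, against 2.93% of all genes, made up of 1.21% higher and 1.72% lower. The median difference was 0.09 over the 40 collagens and 0.01 over all genes, with 29 of 40 above 0. Among fibrillar genes 10 of 11 lay above 0, with a median of 0.21, and none passed. Averaged over both treatments, 8 collagens passed, all higher, against 24.6% of all genes, 11.3% higher and 13.3% lower. They were Col4a6, Col5a3, Col8a2, Col11a2, Col13a1, Col15a1, Col17a1 and Col18a1. The averaged call of Col4a6 (adjusted p = 0.0473) was lost in 9 of 13 alternative settings and in 15 of 22 fits without 1 array, and that of Col5a3 in 3 and 7. In all, 17 collagens passed in at least 1 comparison and 23 in none. The share of all genes that passed in at least 1 was not counted, and it is no lower than the 24.6% of the average. The averaged count was 1 with the lung score as a covariate, 5 without control PBS array 4 or PGC-1alpha PBS array 3, 14 without control phenformin array 5, and 16 without control PBS array 1.

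**Figure D1:**
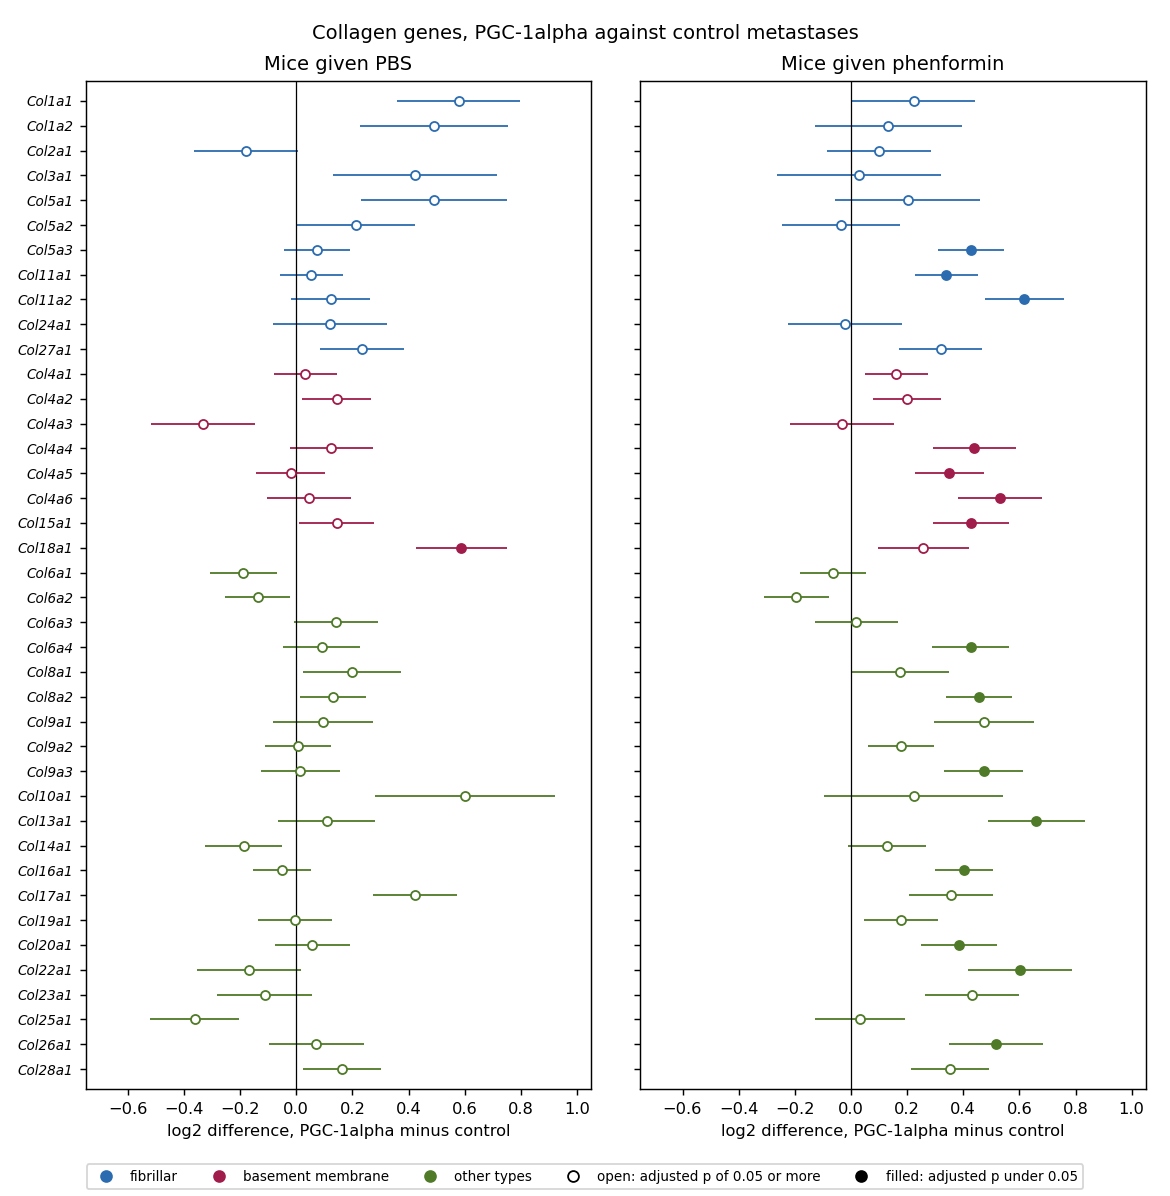
Log2 difference of each tested collagen gene between PGC-1alpha and control metastases, in mice given PBS (left) and phenformin (right), with the gene on the vertical axis. Points are fitted differences and bars 1 SE, colour gives the class, and filled points have an adjusted p under 0.05. On the left 1 point is filled, Col18a1 at 0.59, and on the right 15 are filled, all to the right of 0.

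The bulk fibrillar chains varied widely between arrays and did not pass. Col1a1 and Col1a2 encode the chains of type I collagen, the main fibril of most tissues. Col1a1 read 8.86, 8.58, 8.95, 8.45 and 7.97 on the 5 control arrays under PBS and 8.83, 9.63, 8.47, 9.15 and 8.77 on the 5 under phenformin. In the PGC-1alpha groups, given as lowest, median and highest of 6 arrays throughout, it read 8.57, 9.06 and 9.74 under PBS and 8.76, 9.29 and 9.55 under phenformin. The groups overlapped under both treatments, and the lowest array was control PBS array 5. The difference was 0.58 (SE 0.22, adjusted p = 0.156) under PBS, with a 95% interval of 0.12 to 1.03, and 0.22 (SE 0.22, adjusted p = 0.477) under phenformin.

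Col1a2 read 7.59, 7.43, 8.20, 7.49 and 7.31 in control metastases under PBS and 7.95, 8.61, 7.30, 8.36 and 7.88 under phenformin. PGC-1alpha metastases had 7.49, 7.98 and 9.10 under PBS and 7.41, 8.30 and 8.65 under phenformin, and the groups overlapped under both treatments. Its differences were 0.49 (SE 0.26, adjusted p = 0.331) under PBS and 0.13 (SE 0.26, adjusted p = 0.741) under phenformin. Col3a1, whose product joins type I collagen in the fibrils of elastic organs such as lung, read 7.59, 8.05, 8.63, 8.32 and 8.22 and 8.14, 9.30, 8.27, 8.65 and 8.88 in the control groups under PBS and phenformin. Its PGC-1alpha values were 7.78, 8.34 and 9.80 under PBS and 8.27, 8.60 and 9.34 under phenformin. The highest array was of the PGC-1alpha PBS group and the lowest was control PBS array 1, and the differences were 0.42 (SE 0.29, adjusted p = 0.476) and 0.03 (SE 0.29, adjusted p = 0.958). Col5a2, a chain of type V collagen, which starts fibril assembly, read 7.18, 7.41, 7.60, 7.18 and 7.10 and 7.51, 8.13, 7.03, 8.33 and 7.02 in the control groups, and 7.06, 7.45 and 8.10 and 7.26, 7.64 and 7.75 in the PGC-1alpha groups. Control phenformin arrays 2 and 4 were above every PGC-1alpha phenformin array, and neither difference passed (0.21 under PBS and -0.03 under phenformin). Col5a1, the partner chain, stood at 0.49 (SE 0.26, adjusted p = 0.322) under PBS and 0.20 (SE 0.26, adjusted p = 0.594) under phenformin.

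The fibrillar genes that passed under phenformin were minor chains. Col11a2, a chain of type XI collagen, best known from cartilage fibrils, read 7.54, 7.94, 7.61, 7.33 and 7.57 in control metastases under PBS and 7.42, 7.18, 7.23, 7.29 and 7.58 under phenformin. Its PGC-1alpha values were 7.25, 7.67 and 8.28 under PBS and 7.88, 7.91 and 8.16 under phenformin. All 6 PGC-1alpha phenformin arrays lay above all 5 control phenformin arrays, with a difference of 0.62 (SE 0.14, adjusted p = 0.00599) and an interval of 0.33 to 0.91. Under PBS the groups overlapped and the difference was 0.12 (adjusted p = 0.698). Col11a2 remained called under phenformin in all 14 alternative settings and after leaving out each array in turn.

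Col11a1, the partner chain of Col11a2, read 6.33, 5.98, 6.19, 5.98 and 6.26 and 6.04, 5.99, 5.97, 6.20 and 6.06 in the control groups under PBS and phenformin. The PGC-1alpha arrays read 5.87, 6.19 and 6.45 and 6.20, 6.40 and 6.58. Under phenformin the lowest PGC-1alpha array barely cleared the highest control array, both being 6.20 after rounding, and the difference was 0.34 (SE 0.11, adjusted p = 0.0354). That call was lost in 6 of 13 alternative settings and in 7 of 22 fits without 1 array. Col5a3, an additional chain of type V collagen, read 6.99, 7.16, 7.25, 6.91 and 7.01 and 6.55, 6.66, 7.04, 6.85 and 7.15 in control metastases, and 6.92, 7.11 and 7.34 and 7.09, 7.23 and 7.51 in PGC-1alpha metastases. Control phenformin array 5 reached into the PGC-1alpha range, and the difference was 0.43 (SE 0.12, adjusted p = 0.0152) under phenformin and 0.07 under PBS. It did not pass with the lung score as a covariate (adjusted p = 0.0607).

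The other fibrillar members did not pass in any comparison. Col2a1, the main collagen of cartilage, differed by -0.18 under PBS and 0.10 under phenformin, with control PBS array 1 at 6.47 and the other 21 arrays between 4.82 and 5.53. Col24a1 differed by 0.12 and -0.02 and lay above the median negative control on 13 of 22 arrays. Col27a1 differed by 0.23 and 0.32 (adjusted p = 0.43 and 0.122).

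**Figure D2:**
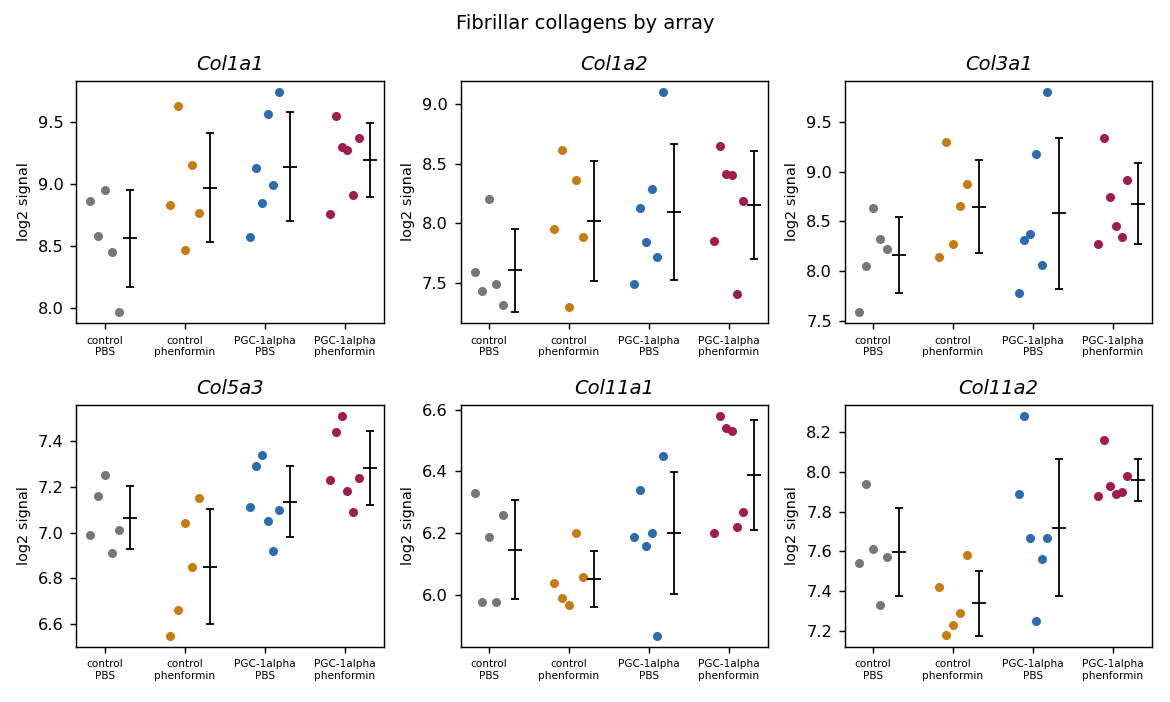
Log2 signal of 6 fibrillar collagen genes on each of the 22 arrays (vertical axis), by group (horizontal axis), 1 point per array, with the group mean and SD to the right of the points. The top row (Col1a1, Col1a2, Col3a1) shows groups that overlap, and in the bottom row the phenformin groups of Col11a1 and Col11a2 separate, while Col5a3 overlaps by 1 control array (7.15 against a lowest PGC-1alpha value of 7.09).

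Among basement membrane collagens, Col18a1 was the brightest. Its product, type XVIII collagen, carries heparan sulfate and is the source of endostatin, a fragment that inhibits the growth of blood vessels. Control arrays under PBS read 9.86, 9.91, 9.72, 10.18 and 9.43, and those under phenformin 10.23, 9.97, 9.87, 10.25 and 10.07. PGC-1alpha arrays read 10.22, 10.32 and 10.82 under PBS and 9.96, 10.24 and 11.01 under phenformin. Under PBS every PGC-1alpha array lay above every control array, the 1 collagen of 40 for which this held with PGC-1alpha higher, against 1.65% of all genes, while 0 collagens and 1.61% of all genes were apart with PGC-1alpha lower. The difference there was 0.59 (SE 0.16, adjusted p = 0.0473), with an interval of 0.25 to 0.92, against 0.26 (SE 0.16, adjusted p = 0.247) under phenformin, where the groups overlapped. The change of the difference with treatment was -0.33 (SE 0.23, adjusted p = 0.593), so the effects were not shown to differ. Averaged over treatments it was 0.42 (SE 0.11, adjusted p = 0.0101). The PBS call lay close to the threshold and was lost in 6 of 14 alternative settings and in 16 of 22 fits without 1 array, in which the difference ranged from 0.49 to 0.68 and the adjusted p reached 0.134.

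Col15a1 encodes type XV collagen, the near relative of type XVIII, found where basement membranes meet fibrils. It read 7.69, 7.24, 7.42, 7.25 and 7.19 and 7.37, 6.98, 6.86, 6.83 and 7.43 in control metastases under PBS and phenformin, and 7.26, 7.51 and 7.76 and 7.37, 7.53 and 7.73 in PGC-1alpha metastases. Control phenformin arrays 2, 3 and 4 lay below all others of the series, and arrays 1 and 5 of that group fell among the PGC-1alpha values. The difference was 0.43 (SE 0.13, adjusted p = 0.0282) under phenformin, 0.14 under PBS, and 0.29 (SE 0.09, adjusted p = 0.031) averaged over treatments. The phenformin call was lost in 3 of 14 alternative settings and in 5 of 22 fits without 1 array, and the averaged call in 3 of 13 and 9 of 22. In both comparisons the 3 settings were those without the 4 arrays of lowest weight, with the lung score as a covariate and with the replicate block.

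The type IV chains are described by partner. Col4a1 and Col4a2 form the network present in every basement membrane. Col4a1 read 8.12, 7.95, 7.85, 7.72 and 7.97 and 7.84, 7.64, 7.62, 7.57 and 8.0 in the control groups, and 7.76, 7.96 and 8.12 and 7.59, 7.90 and 8.16 in the PGC-1alpha groups. Col4a2 read 7.76, 7.09, 7.40, 7.30 and 7.43 and 7.15, 7.40, 7.31, 7.03 and 7.41, and 7.35, 7.49 and 7.80 and 7.29, 7.44 and 7.68, in the same order. All 4 groups overlapped for both genes. Under phenformin the differences were 0.16 (SE 0.11, adjusted p = 0.304) for Col4a1 and 0.20 (SE 0.12, adjusted p = 0.236) for Col4a2, with intervals of -0.07 to 0.40 and -0.05 to 0.45.

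Col4a3 and Col4a4 contribute to the network of specialised basement membranes, those of the alveoli among them. Col4a3 read 7.38, 7.45, 7.56, 7.87 and 7.72 and 7.12, 7.32, 7.03, 7.27 and 7.39 in control metastases, and 6.87, 7.30 and 7.64 and 6.56, 7.14 and 7.77 in PGC-1alpha metastases. It was 1 of 3 collagens, with Col6a1 and Col6a2, whose difference was below 0 under both treatments, at -0.33 (SE 0.19, adjusted p = 0.356) and -0.03 (SE 0.19, adjusted p = 0.921), and its groups overlapped. Col4a4 read 6.47, 7.15, 6.97, 6.80 and 6.77 and 6.78, 6.45, 6.42, 6.26 and 6.76, then 6.66, 6.85 and 7.46 and 6.86, 6.94 and 7.21. Its phenformin groups did not overlap, and the difference was 0.44 (SE 0.15, adjusted p = 0.0385), against 0.12 under PBS. The call was lost in 4 of 14 alternative settings, among them each array centred on its median, quantile normalization and cyclic loess. It was also lost in 8 of 22 fits without 1 array.

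Col4a5 and Col4a6, whose promoters are shown above, encode chains that occur together in basement membranes of smooth muscle and some epithelia. Col4a6 read 6.49, 6.61, 6.51, 6.27 and 6.35 and 6.26, 6.09, 6.49, 5.88 and 6.46 in the control groups. In the PGC-1alpha groups it read 6.06, 6.41 and 6.97 and 6.53, 6.78 and 6.98, and all 6 arrays of the phenformin group lay above the 5 of the control phenformin group. The difference was 0.53 (SE 0.15, adjusted p = 0.0165) under phenformin and 0.05 under PBS, and it missed the threshold in 1 of 22 fits without 1 array (adjusted p = 0.0517 without control phenformin array 4). Col4a5 was dimmer, at 5.43, 5.36, 4.97, 5.31 and 5.17 and 5.32, 4.74, 4.92, 5.17 and 5.21 in control metastases and 5.08, 5.24 and 5.39 and 5.15, 5.39 and 5.73 in PGC-1alpha metastases. The groups overlapped, and control phenformin array 2 was the lowest of all. The call at a difference of 0.35 (SE 0.12, adjusted p = 0.0459) was lost in 11 of 13 alternative settings and in 11 of 22 fits without 1 array. Under PBS its difference was -0.02.

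**Figure D3:**
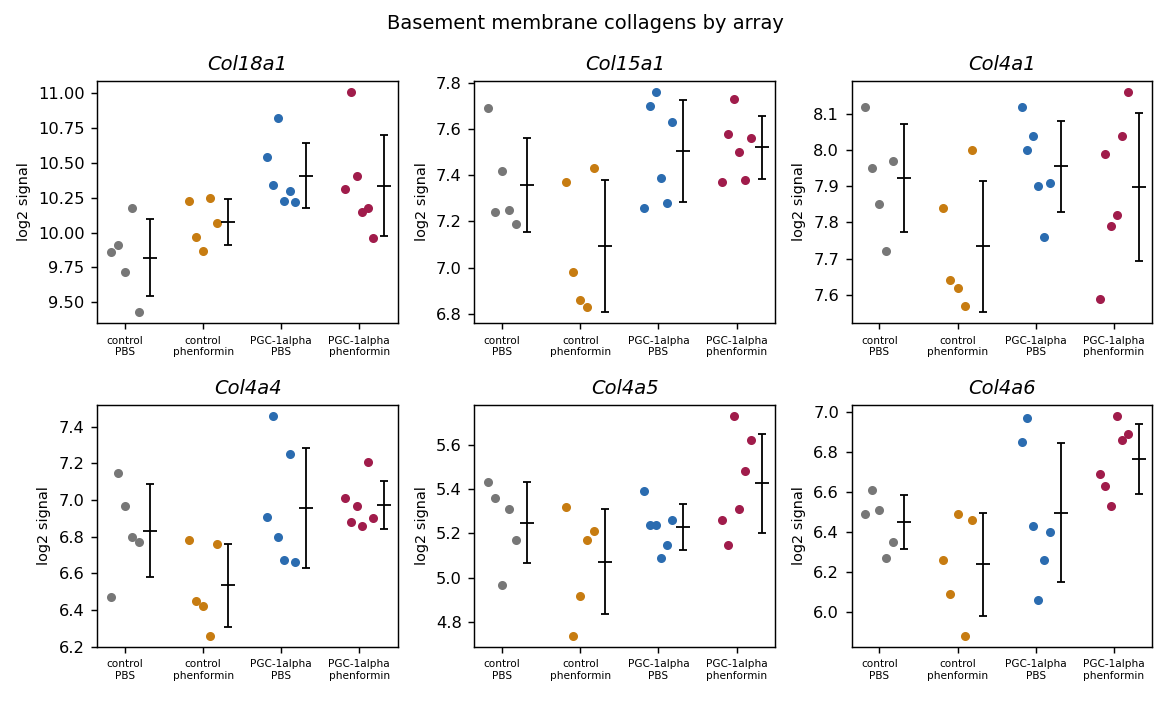
Log2 signal of 6 basement membrane collagen genes on each of the 22 arrays (vertical axis), by group (horizontal axis), with the group mean and SD beside the points. Col18a1 separates the lines under PBS (control up to 10.18, PGC-1alpha from 10.22), Col4a4 and Col4a6 separate them under phenformin, and Col4a1 overlaps in all 4 groups.

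Of the remaining types, the transmembrane Col13a1 had the largest difference under phenformin. Type XIII collagen is a cell-surface collagen of adhesion sites and the neuromuscular junction. Control arrays read 8.48, 7.61, 7.39, 7.61 and 7.52 under PBS and 7.49, 7.40, 7.45, 7.41 and 7.62 under phenformin, and PGC-1alpha arrays 7.40, 7.85 and 8.25 and 7.87, 8.15 and 8.40. Under phenformin the groups were fully apart, with a difference of 0.66 (SE 0.17, adjusted p = 0.0117) and an interval of 0.30 to 1.02. Under PBS the 6 PGC-1alpha arrays fell into 3 above 8.0 and 3 below 7.7, control array 1 was at 8.48, and the difference was 0.11. The phenformin call held in all 14 alternative settings and in all 22 fits without 1 array.

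Col17a1, the collagen of hemidesmosomes, which fix epithelial cells to their basement membrane, was dim and passed in the average alone. It read 5.02, 4.34, 5.42, 4.70 and 4.80 and 5.26, 5.07, 4.82, 4.91 and 5.20 in control metastases, of which 3 and 4 arrays lay above the median negative control. PGC-1alpha metastases read 4.97, 5.32 and 5.55 and 5.32, 5.41 and 5.53. The differences were of like size under both treatments, 0.42 (SE 0.15, adjusted p = 0.123) and 0.36 (SE 0.15, adjusted p = 0.0858), and averaged 0.39 (SE 0.11, adjusted p = 0.0102). The averaged call held in all 12 alternative settings and all 22 fits without 1 array. Col23a1 differed by -0.11 and 0.43 (SE 0.17, adjusted p = 0.0682) under PBS and phenformin. Col25a1 differed by -0.36 (SE 0.16, adjusted p = 0.228) under PBS, where control array 1 read 7.39 and the other 4 read 6.29 to 6.48, and by 0.03 under phenformin.

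Col8a2, a chain of the hexagonal type VIII network of vessel walls and the cornea, read 7.59, 7.18, 7.25, 7.18 and 7.31 and 7.06, 6.93, 7.08, 7.10 and 7.38 in the control groups. PGC-1alpha arrays had 7.27, 7.39 and 7.70 and 7.22, 7.64 and 7.73. One PGC-1alpha phenformin array, at 7.22, fell below control phenformin array 5, and the difference was 0.46 (SE 0.12, adjusted p = 0.0108) under phenformin and 0.13 under PBS. Its partner Col8a1 differed by 0.20 (SE 0.17, adjusted p = 0.591) and 0.17 (SE 0.17, adjusted p = 0.486). Col10a1, of hypertrophic cartilage, differed by 0.60 (SE 0.32, adjusted p = 0.328) and 0.22 (SE 0.32, adjusted p = 0.638), with array values from 4.32 to 6.82.

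**Figure D4:**
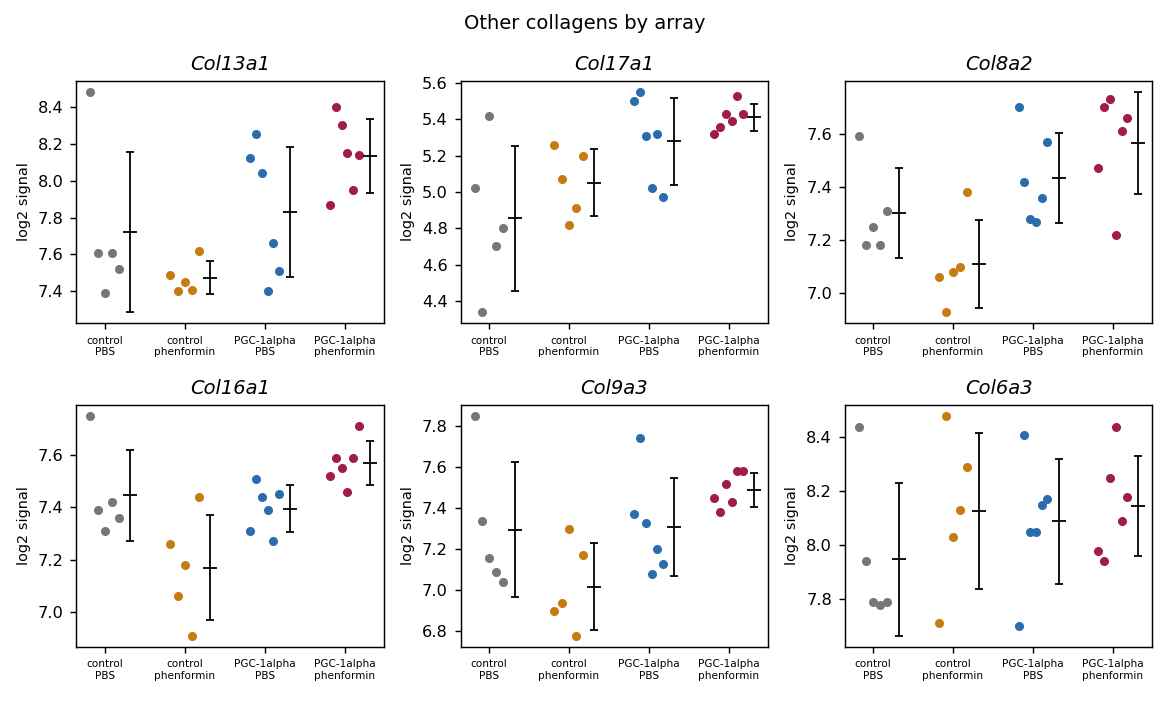
Log2 signal of 6 other collagen genes on each of the 22 arrays (vertical axis), by group (horizontal axis), with the group mean and SD beside the points. The phenformin groups of Col13a1, Col16a1, Col9a3 and Col17a1 do not overlap, those of Col8a2 and Col6a3 do, and the highest control PBS point is array 1 for Col13a1 (8.48), Col8a2, Col16a1, Col9a3 and Col6a3 but not for Col17a1.

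The fibril-associated collagens, which decorate fibrils without forming them, held 4 of the calls. Col16a1 read 7.75, 7.39, 7.31, 7.42 and 7.36 and 7.26, 7.06, 7.18, 6.91 and 7.44 in control metastases and 7.27, 7.42 and 7.51 and 7.46, 7.57 and 7.71 in PGC-1alpha metastases. Control phenformin array 5, at 7.44, lay just below the lowest PGC-1alpha phenformin array, at 7.46. Its difference was 0.40 (SE 0.10, adjusted p = 0.0106) under phenformin and -0.05 under PBS, and the phenformin call held in all 14 alternative settings and all 22 fits without 1 array. In control metastases Col16a1 differed between phenformin and PBS by -0.28, which did not pass (adjusted p = 0.409). Col9a3, a chain of type IX collagen of cartilage fibrils, read 7.85, 7.34, 7.16, 7.09 and 7.04 and 6.90, 6.94, 7.30, 6.78 and 7.17 in the control groups, and 7.08, 7.26 and 7.74 and 7.38, 7.49 and 7.58 in the PGC-1alpha groups. Control PBS array 1 was the highest of all 22, the phenformin groups did not overlap, and their difference was 0.47 (SE 0.14, adjusted p = 0.0222), against 0.01 under PBS. That call missed the threshold without control phenformin array 4 (adjusted p = 0.0607).

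Col22a1, a collagen of tissue junctions such as that of muscle with tendon, read 8.37, 7.64, 7.46, 7.34 and 7.30 and 7.45, 7.13, 7.01, 6.70 and 7.63 in control metastases. PGC-1alpha arrays read 7.14, 7.48 and 7.85 and 7.57, 7.76 and 8.04, and only control phenformin array 5 reached their phenformin range. The difference was 0.60 (SE 0.19, adjusted p = 0.0258) under phenformin and -0.17 under PBS. The phenformin call was lost in 2 of 14 alternative settings, 1 of them the lung score as a covariate, and in 5 of 22 fits without 1 array. Col20a1 read 7.78, 7.78, 7.33, 7.44 and 7.32 and 7.23, 7.12, 7.26, 7.04 and 7.60, and 7.35, 7.5 and 8.03 and 7.47, 7.62 and 7.83, in the same order of groups. Here too control phenformin array 5 was the 1 that overlapped, and the difference was 0.38 (SE 0.13, adjusted p = 0.044). That call was lost in 4 of 14 alternative settings and in 8 of 22 fits without 1 array. Among the other fibril-associated genes Col9a1 differed by 0.47 (SE 0.18, adjusted p = 0.0597) under phenformin, Col9a2 by 0.18, Col14a1 by 0.13 and Col19a1 by 0.18, none of which passed.

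Type VI collagen, whose beaded filaments lie between cells and fibrils, did not pass in its main chains. Col6a1 read 7.68, 7.22, 7.42, 7.28 and 7.35 and 7.33, 7.37, 7.36, 7.39 and 7.67 in control metastases and 6.98, 7.22 and 7.40 and 7.03, 7.38 and 7.57 in PGC-1alpha metastases. Col6a2 read 7.88, 7.5, 7.84, 7.78 and 7.77 and 7.98, 7.89, 7.60, 7.89 and 8.26, and 7.36, 7.61 and 7.94 and 7.64, 7.75 and 7.85. Col6a1 and Col6a2 differences were below 0 under both treatments, -0.19 and -0.06 for Col6a1 and -0.14 and -0.19 for Col6a2, and did not pass (adjusted p from 0.421 to 0.724 for Col6a1). Col6a3, the large chain, read 8.44, 7.94, 7.79, 7.78 and 7.79 and 7.71, 8.48, 8.03, 8.13 and 8.29, and 7.70, 8.10 and 8.41 and 7.94, 8.14 and 8.44. Its groups overlapped, with differences of 0.14 and 0.02. The interval for the phenformin difference was -0.31 to 0.18 for Col6a1, -0.43 to 0.05 for Col6a2 and -0.29 to 0.33 for Col6a3.

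Col6a4 was the 1 type VI gene that passed, and it was dim. It read 5.36, 5.01, 5.08, 5.19 and 4.95 and 5.21, 4.50, 4.76, 4.81 and 5.09 in control metastases, where 3 of the 5 phenformin arrays lay above the median negative control, and 5.02, 5.18 and 5.37 and 4.98, 5.28 and 5.67 in PGC-1alpha metastases. The groups overlapped, and the difference was 0.43 (SE 0.14, adjusted p = 0.031) under phenformin and 0.09 under PBS. The call was lost in 7 of 13 alternative settings and in 5 of 22 fits without 1 array. Col6a5 and Col6a6, which were not tested, lay above the median negative control on 13 and 6 of 22 arrays. Col26a1, a collagen first described in testis and ovary, read 5.51, 6.04, 5.88, 5.68 and 6.23 and 5.46, 6.26, 5.52, 5.12 and 6.13 in control metastases and 5.76, 5.92 and 6.14 and 6.02, 6.15 and 6.54 in PGC-1alpha metastases. Control phenformin arrays 2 and 5 overlapped with the PGC-1alpha phenformin group, and the difference was 0.52 (SE 0.17, adjusted p = 0.0335). This call was lost in 3 of 13 alternative settings and in 5 of 22 fits without 1 array. Col28a1 differed by 0.16 and 0.35 (SE 0.14, adjusted p = 0.0718).

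The 15 collagens that passed under phenformin had small differences under PBS, from -0.17 to 0.14 with a median of 0.07, and 12 of the 15 were above 0. The phenformin comparison chose the 15, and the interaction term tested the change of the line difference between treatments. That term contains the same phenformin difference, so for the 15 it was not a separate test. Their interaction values are tilted upward by that choice. No collagen passed for the interaction, with adjusted p-values of 0.311 to 0.58 for the 15, and 9 of the 40 had an unadjusted p under 0.05. Across all 15545 genes limma likewise called none for the interaction, with 1724 at an unadjusted p under 0.05. The median interaction was 0.28 over the collagens and -0.01 over all genes, and 0.37 over the 15. So the line difference under phenformin was not shown to differ from that under PBS for any single collagen. By class the median was -0.14 for fibrillar, 0.29 for basement membrane and 0.32 for other collagens, and for Col1a1, Col1a2 and Col3a1 it was -0.35, -0.36 and -0.39.

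Control PBS array 1 stood apart in the collagens. Of the 40 tested, 24 (60%) were highest on it among the 5 control PBS arrays, as were 21.4% of all genes, and 10 of the 15 called under phenformin were among them. It also had the lowest array weight of the series, 0.397. Without it the PBS differences of the 15 ran from -0.02 to 0.30 with a median of 0.10, the median over the 40 collagens was 0.14, 32 of 40 were above 0, and no collagen passed for PBS alone. The median interaction of the 15, which were chosen by their phenformin difference, was 0.36 without it.

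No collagen passed for phenformin against PBS in either line. In control metastases 13 of 40 differences, phenformin minus PBS, were above 0, with a median of -0.17, against -0.01 over all genes. In PGC-1alpha metastases 31 of 40 were above 0, with a median of 0.09, against -0.01. The lowest adjusted p was 0.409 in the former and 0.957 in the latter, and limma called none of all 15545 genes in either, with 1498 and 674 at an unadjusted p under 0.05, of which 2 and 0 were collagens. The 2 were Col16a1 (-0.28) and Col22a1 (-0.44) in control metastases, named after their values were seen. The type I and III chains had the opposite sign there, 0.41 for Col1a1, 0.42 for Col1a2 and 0.49 for Col3a1, with adjusted p-values of 0.573, 0.632 and 0.611. The averaged treatment effect likewise called no collagen by limma, with 0 of 40 at an unadjusted p under 0.05. These comparisons share their control and PGC-1alpha arrays with the line comparisons above.

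Several measures moved with the line difference, and their part in the collagen result was not tested. By signal level, the median difference over all genes under phenformin fell from 0.17 below a mean signal of 5.5 to -0.14 above 8.5, while that of the collagens was 0.35, 0.22, 0.40, 0.27 and 0.22 in the 5 successive bins. Between 6.5 and 7.5, where 6 of the 13 collagens were called, 14.1% of all genes passed higher. Negative control probe sets of that brightness had a median difference of 0.13 under phenformin and 0.17 under PBS, and those of 7.5 to 8.5 had 0.21 and 0.26. The median of each array over the 829 negative controls of 6.5 to 8.5 was averaged by group. It was 7.11 ± 0.12 (SD, n = 5) and 7.16 ± 0.17 in control metastases under PBS and phenformin, and 7.27 ± 0.14 (n = 6) and 7.25 ± 0.13 in PGC-1alpha metastases. With that level as a covariate, chosen after seeing the data, 14 collagens passed under phenformin. Of the 15 called collagens 12 lay below the 95th percentile of the negative controls on all 22 arrays.

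**Figure D5:**
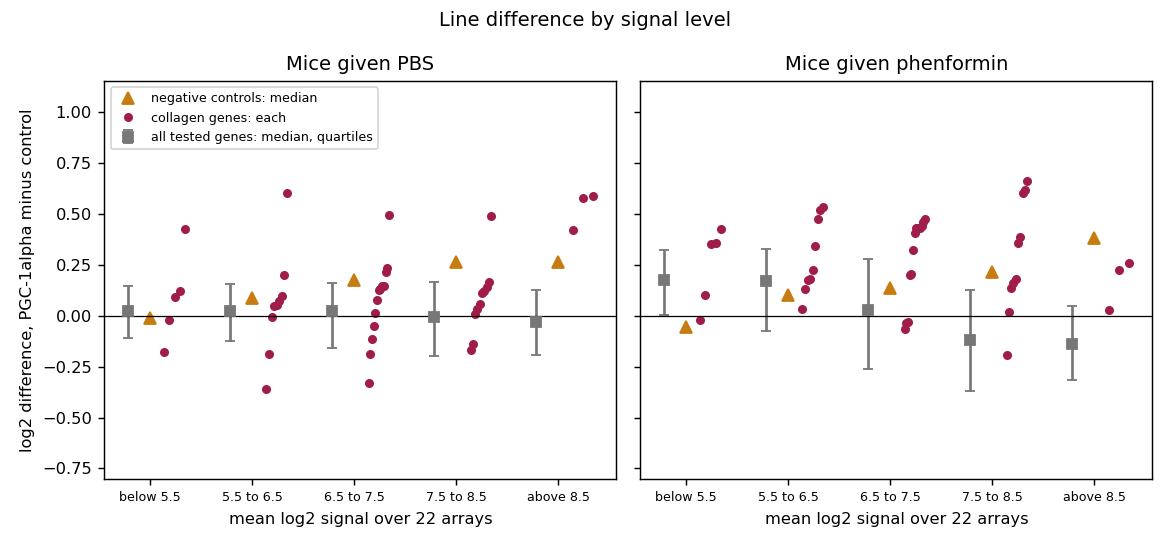
Line difference under PBS (left) and phenformin (right) against mean signal, in 5 bins of log2 signal over the 22 arrays (horizontal axis). Squares with bars are the median and quartiles of all tested genes, triangles the median of the negative controls, and dots single collagen genes. Under phenformin the squares fall from 0.17 to -0.14 with brightness and the triangles rise from -0.06 to 0.38, and most collagen dots lie above both in the bins from 5.5 to 7.5.

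Markers of other cell types were read on the same arrays, and their part in the collagen result was not tested. Fibroblast and smooth muscle genes, 14 tested of 15, had mean levels of 7.88 (7.49 to 8.13 by array) and 7.96 (7.68 to 8.30) in control metastases under PBS and phenformin, and 7.82 (7.30 to 8.28) and 7.97 (7.68 to 8.34) in PGC-1alpha metastases. None of the 14 passed under PBS or phenformin, against 2.93% and 21.1% of all genes. Pdgfrb, the receptor of pericytes and fibroblasts, passed higher in the average (0.35), as did 11.3% of all genes. With the stromal score, the mean of these 14 genes after each was scaled over the arrays, as a covariate 17 collagens passed under phenformin. For normal lung markers, alveolar type 1 genes averaged 10.06 and 10.03 in the control groups and 9.75 and 9.81 in the PGC-1alpha groups, type 2 genes 10.76 and 10.74 against 10.49 and 10.52, and endothelial genes 7.98 and 7.93 against 7.60 and 7.61. Among alveolar type 1 markers 1 of 8 passed lower under phenformin, among type 2 markers 2 of 10 and among endothelial markers 1 of 12, against 11.1% of all genes. In the average 2 of 8, 3 of 10 and 2 of 12 passed lower and 0 higher, against 13.3% and 11.3% of all genes. By limma 5, 4 and 8 of them had an unadjusted p under 0.05 in the average, against 6066 of all 15545 genes. Below 0 under phenformin lay 7 of 8 type 1, 8 of 10 type 2 and 11 of 12 endothelial markers, with medians of -0.16, -0.17 and -0.39. Over all genes the median was 0.00. Sftpc, the surfactant gene that defines type 2 cells, was bright in all groups, at 13.40, 13.46, 13.38 and 13.42 in the order used above. With the lung score as a covariate 8 collagens passed under phenformin. Cartilage markers, 4 tested of 7, averaged 6.21 and 6.30 in control and 6.74 and 6.79 in PGC-1alpha metastases, and Acan, the cartilage proteoglycan, was higher by 1.75 under PBS and 1.20 under phenformin. Of the 4, Acan alone passed under PBS, where the median was 0.23, Comp lay below 0 and 1.21% of all genes passed higher. Acan and Cnmd (0.46) passed under phenformin, where the median was 0.32 and 10% of all genes passed higher. Cnmd was dim, above the median negative control on 16 of 22 arrays and above the 95th percentile on 0.

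Neutrophil markers, 6 tested, averaged 8.26 and 8.12 in the control groups under PBS and phenformin, and 7.63 and 7.53 in the PGC-1alpha groups. Of these, 4 passed lower under PBS and 4 under phenformin, with medians of -0.81 and -0.65, against 1.72% and 11.1% of all genes. They were Csf3r, Cxcr2, S100a8 and S100a9 under both. Club and ciliated cell markers, 7 tested, averaged 8.22 ± 0.94 (SD, n = 5) and 7.96 ± 1.11 in control metastases, and 6.62 ± 0.82 (n = 6) and 7.88 ± 1.44 in PGC-1alpha metastases. None of them passed under PBS or phenformin by limma, against 2.93% and 21.1% of all genes, although all 7 were below 0 under PBS (median -1.01). Of the 7, 4 under PBS and 0 under phenformin had an unadjusted p under 0.05. Mesothelial markers, 6 tested, averaged 7.90, 7.94, 7.47 and 7.88 in the same order of groups. Of the 6, 4 lay below 0 under PBS and 4 under phenformin, with medians of -0.51 and -0.11. Msln, a surface protein of mesothelium, went the other way and passed higher under PBS (0.59) and phenformin (0.52), as did 1.21% and 10% of all genes. Krt19, a keratin, passed lower under phenformin (-0.50), as did 11.1% of all genes. Macrophage markers, 8 tested, averaged 7.96, 8.13, 8.12 and 8.05. Under PBS 4 of the 8 lay above 0 (median 0.05), and Mrc1, the mannose receptor, passed higher (0.92), as did 1.21% of all genes. Under phenformin 2 of the 8 lay above 0 (median -0.13) and 0 passed, against 21.1% of all genes. Mammary tumour epithelium markers, 11 tested, averaged 8.59, 8.55, 8.44 and 8.45. None of the 11 passed under PBS or phenformin by limma, against 2.93% and 21.1% of all genes. Of the 11, 2 and 3 had an unadjusted p under 0.05, with medians of -0.14 and -0.15. In the average 1 passed higher, Erbb2 (0.35), and 2 lower, against 11.3% and 13.3% of all genes. There 6 of the 11 had an unadjusted p under 0.05 by limma, and the median was -0.12.

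Chains of the same trimer or fibril were compared for how they varied between arrays after removal of group means, in 10 pairs. Col1a1 and Col1a2 moved together most closely, with Pearson's r = 0.879 and Spearman's rho = 0.892 over 22 arrays (permutation p = 1e-05 for each, the smallest that 100000 permutations can give, adjusted p = 0.0001 for each). Col1a1 and Col3a1 had r = 0.713 and rho = 0.648 (permutation p = 0.00088 and 0.00426, adjusted p = 0.0044 and 0.0108), although control PBS array 1 was the lowest of all for Col3a1 and above the mean of its group for Col1a1. Col5a1 with Col5a2 had r = 0.635 and rho = 0.609 (permutation, adjusted p = 0.00463 and 0.0117), and Col3a1 with Col5a2 r = 0.568 and rho = 0.546 (permutation, adjusted p = 0.0229 and 0.0327). Col4a1 with Col4a2, whose start sites lie 21 bases apart, had r = 0.605 and rho = 0.635 (permutation, adjusted p = 0.0104 and 0.0108). Col6a1 with Col6a2 had r = 0.63 and rho = 0.645 (permutation, adjusted p = 0.00453 and 0.0108). Without the 2 arrays farthest from the median of the first gene these 6 values of r were 0.897, 0.768, 0.476, 0.458, 0.548 and 0.64 in the order given.

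The other 4 pairs did not pass. Col4a3 with Col4a4 had r = 0.248 and rho = 0.386 (permutation, adjusted p = 0.3 and 0.131). Col4a5 with Col4a6, the pair called together under phenformin, had r = 0.164 and rho = 0.160 (permutation, adjusted p = 0.446 and 0.49). Col6a1 with Col6a3 had r = 0.323 and rho = 0.286 (permutation, adjusted p = 0.222 and 0.247), and r = 0.018 without the 2 farthest arrays. Col8a1 with Col8a2 had r = 0.293 and rho = 0.300 (permutation, adjusted p = 0.298 and 0.247). The arrays of a pair share their normalization.

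Among the genes that make, cut and bind collagen some passed higher and some lower, and their counts are given beside the shares of all genes. Of 25 tested genes of collagen synthesis and processing, 2 passed higher and 2 lower under phenformin, with a median of -0.07, against 10% of all genes higher and 11.1% lower. The higher ones were Adamts14 (0.44), which cuts the amino propeptide of fibrillar procollagens, and Tll2 (0.43), a protease of the family that removes the carboxy propeptide. P3h2, a prolyl 3-hydroxylase that acts on basement membrane collagens, was lower by -1.14 (SE 0.22) under phenformin and -0.88 (SE 0.22) under PBS, and Plod1, a lysyl hydroxylase, by -0.53 under phenformin. Under PBS 0 of the 25 passed higher and 2 lower, against 1.72% of all genes lower: P3h2 and Pcolce2 (-0.87), an enhancer of procollagen cutting. Averaged over treatments 4 passed higher and 2 lower, against 11.3% and 13.3% of all genes, the higher ones including Bmp1 (0.46), which removes the carboxy propeptide, and Colgalt1 (0.35), which adds galactose to collagen.

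Of 7 tested collagen receptors and uptake genes none passed under PBS or phenformin by limma, against 2.93% and 21.1% of all genes. In each comparison 1 of 7 had an unadjusted p under 0.05, against 2799 and 5770 of all 15545 genes. Itga11, an integrin chain that binds fibrillar collagen, passed higher in the average (0.34), where 11.3% of all genes did. Of 17 tested partners of collagen in basement membranes, 3 passed higher under phenformin and 0 lower, with a median of -0.05, against 10% of all genes higher and 11.1% lower. These were Agrn, a heparan sulfate proteoglycan (0.55), and the laminin chains Lamc3 (0.50) and Lama5 (0.43). Lama3, of the epithelial laminin of hemidesmosomes, passed lower under PBS at -0.75, where 1.72% of all genes did. In the average Lama3 (-0.61) and Lamb3 (-0.62) passed lower, and Agrn (0.43) and Lama5 (0.32) higher, against 13.3% of all genes lower and 11.3% higher. Of 17 tested genes of the TGF-beta pathway, which induces fibrillar collagen, 0 passed higher and 3 lower under phenformin, against the same 10% and 11.1% of all genes: the ligand Tgfb2 (-0.83), the inhibitor Skil (-0.54) and the transducer Smad2 (-0.44). Under PBS Ltbp1, which stores the latent ligand, was higher by 0.70, in a comparison where 1.21% of all genes passed higher. No gene of these 4 lists passed for phenformin against PBS or for the interaction, as none of all genes did.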

How the data were processed

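The authors deposited log2 signals after their own normalisation, with 1 value for each probe set on each array. They were made with oligo, per the submitters' processing notes, and its version, background correction and normalization method are not given in the sources used here. Another deposited table was not used, since its 22 columns match no sample name.

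The members, the lists of other genes and the markers were chosen with earlier results of these data known. Probe sets were named through the platform annotation (19572 with 1 symbol, 0 with several, 2634 with none), and the brightest was kept where a gene had several. A gene was tested where 5 or more arrays had it above their 25th percentile (15545 of 19505). Array medians were 6.55 to 6.64. The number of arrays limits the precision.

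One model of all 4 groups was fitted by limma (version 3.58.1, under R 4.3.3; lmFit and eBayes, 18 residual degrees of freedom), and p-values were adjusted over all 15545 genes by Benjamini-Hochberg. The script was tested on simulated data. Arrays carry no date or batch. Correlations of group-centred values used 100000 permutations, two-sided. Array values are given for 13 core chains and for each collagen that passed in any of 7 comparisons, and from other lists for at most the 4 largest passing changes per comparison.

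Alternatives were other normalizations, filters and moderation, array weights, lung and stromal scores as covariates, the replicate block and leaving out arrays. Sequences are from RefSeq.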

Additional observations from a re-analysis of the deposited data

Results flagged for a closer look

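Single arrays lay far from the rest of their group for 5 of the 27 collagens whose array values are given, in 5 of 108 groups examined. Chance alone gives about 1 such gap in 20 groups. Control PBS array 1 was the highest of its group for Col13a1 at 8.48 (next 7.61), for Col6a3 at 8.44 (next 7.94) and for Col16a1 at 7.75 (next 7.42). Control phenformin array 5 read 7.67 for Col6a1 (next 7.39). PGC-1alpha phenformin array 2 read 8.16 for Col11a2 (next 7.98).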

How the results depend on the processing

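Most collagen probe sets lie within the range of the negative controls, which limits what a small difference in level can show. No result reversed under the alternatives run. The PBS count of 1 became 0 with no filter on dim genes, with only the groups of the contrast, with array weights, without the 4 arrays of lowest weight (control PBS 1 and 5, control phenformin 2 and 3), with the lung score as a covariate and with the bright negative controls as a covariate, the last chosen after seeing the data. Without 1 array at a time it ran from 0 to 1. Without control PBS array 3 the 1 collagen was Col17a1, not Col18a1, which was lost in 16 of these 22 fits. The phenformin count of 15 became 8 without the 4 arrays of lowest weight and 8 with the lung score. It was 10 with arrays centred on their medians or with cyclic loess, 11 with quantile normalization or the stricter filter, and 17 with the stromal score. Without 1 array it ran from 7 to 18, and the lowest count came without control phenformin array 3 or 4. The averaged count of 8 became 1 with the lung score (Col17a1) and 13 with array weights, and ran from 5 to 16 without 1 array. Why these counts moved was not tested. The counts of 0 for phenformin and for the interaction stayed at 0 under every alternative run. Same-numbered arrays of different groups had a mean correlation of 0.018 (-0.189 to 0.312, 31 pairs), against -0.004 (-0.209 to 0.192, 150 pairs) for different numbers. Correlations over 0.1 came to 7 of the 31 and 17 of the 150, and 9 of 22 arrays were closest to their own number. The labels do not say that the numbers pair the samples, and these values do not settle it. With the replicate block the counts were 1 under PBS, 12 under phenformin and 8 averaged.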
